A study of Mus musculus with 4 samples.

Results

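Spp1, Ibsp, Dmp1 and Mepe encode 4 of the 5 classical SIBLING proteins, the small integrin-binding ligand, N-linked glycoproteins of bone and dentin. They were taken by gene symbol, 4 of the 28006 features in the count matrices, and the fifth member, Dspp, is described beside them. The set was chosen on levels in these same data: it was known that Ibsp is high in reticular cells and that Spp1 is higher after ablation, so levels by cell class and the difference of Spp1 between ABL and CONT are given here as a description, with no test. The mice carried Cxcl12-iCreER, whose Cxcl12 promoter drives a tamoxifen-inducible recombinase, and R26R(tdTomato/+), a red reporter that recombined cells keep. Tamoxifen was given 7 days before the marrow of 1 femur was mechanically removed, and red cells were sorted 7 days after it from ablated femurs (ABL) and from contralateral, unoperated femurs (CONT). Each condition had 2 libraries, replicate 1 made with Chromium version 2 chemistry and replicate 2 with version 3, and all 4 share the transgenes and the tamoxifen. The cells of replicate 1 were pooled from several mice, so mice cannot be told apart within a library, and the labels give no age.

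SIBLING proteins are acidic, heavily phosphorylated matrix proteins with an Arg-Gly-Asp motif that integrins bind. Osteopontin (Spp1) and bone sialoprotein (Ibsp) are abundant in mineralising matrix, where bone sialoprotein can seed mineral and osteopontin restrains crystal growth and tethers osteoclasts. Dmp1 and Mepe are known as products of late osteoblasts and osteocytes that act on mineralisation and, with the endopeptidase Phex, on phosphate balance. The kinase Fam20c phosphorylates the family.

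The 5 genes lie together on chromosome 5 of GRCm38 (mm10), all on the plus strand, over 270.3 kb in the GENCODE M21 annotation. In order they are Dspp (104170712 to 104180127), Dmp1 (104202613 to 104214102), Ibsp (104299171 to 104311469), Mepe (104325329 to 104338611) and Spp1 (104435118 to 104441050). The gaps between these neighbours are 22.5, 85.1, 13.9 and 96.5 kb. The long noncoding gene Gm31048 lies between Dmp1 and Ibsp and the miRNA gene Gm23616 just before Ibsp. The annotation also holds Gm26703 antisense to Sparcl1, and Gm42793 inside Spp1 on the same strand. Gm42793 is not a feature of the count matrices, so no counts are split between it and Spp1.

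The promoters of the 4 genes are shown because the members share 1 chromosomal cluster and yet differed in where they were read. Each window is from RefSeq on GRCm38.p6, plus strand, 250 bases before to 50 bases after the start RefSeq gives. For Ibsp that start is 104299287, 116 bases inside the GENCODE start given above, so this window lies further into the gene, while for the other 3 genes the starts are at most 7 bases apart. It spans chr5:104434861-104435160 for Spp1, chr5:104299037-104299336 for Ibsp, chr5:104202367-104202666 for Dmp1 and chr5:104325079-104325378 for Mepe. Capitals mark ACCACA or its other strand TGTGGT, the core that Runx factors bind, and CCAAT read on the other strand as ATTGG.
Spp1: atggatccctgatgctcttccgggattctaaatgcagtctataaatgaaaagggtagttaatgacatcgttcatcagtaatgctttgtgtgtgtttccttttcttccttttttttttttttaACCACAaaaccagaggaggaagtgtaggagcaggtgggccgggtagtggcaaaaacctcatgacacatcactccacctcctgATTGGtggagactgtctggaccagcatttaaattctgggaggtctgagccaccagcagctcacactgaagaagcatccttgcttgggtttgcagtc
Ibsp: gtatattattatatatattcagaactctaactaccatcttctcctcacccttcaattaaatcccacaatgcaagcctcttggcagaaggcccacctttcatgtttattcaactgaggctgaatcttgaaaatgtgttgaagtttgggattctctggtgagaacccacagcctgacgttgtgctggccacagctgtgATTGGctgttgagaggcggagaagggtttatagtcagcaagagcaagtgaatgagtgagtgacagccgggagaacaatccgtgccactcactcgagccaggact
Dmp1: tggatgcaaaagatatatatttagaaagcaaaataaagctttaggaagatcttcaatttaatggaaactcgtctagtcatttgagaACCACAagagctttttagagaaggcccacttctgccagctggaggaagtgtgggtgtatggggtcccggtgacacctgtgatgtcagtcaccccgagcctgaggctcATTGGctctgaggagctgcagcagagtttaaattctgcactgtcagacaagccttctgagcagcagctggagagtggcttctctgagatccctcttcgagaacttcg
Mepe: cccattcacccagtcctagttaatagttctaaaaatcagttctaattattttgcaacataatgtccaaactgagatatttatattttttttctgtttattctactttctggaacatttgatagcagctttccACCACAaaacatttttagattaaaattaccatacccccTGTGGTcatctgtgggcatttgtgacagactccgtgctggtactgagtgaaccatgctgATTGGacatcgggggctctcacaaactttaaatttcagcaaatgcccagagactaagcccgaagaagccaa
All 4 windows hold ATTGG, beginning 46, 54, 57 and 21 bases before the start of Spp1, Ibsp, Dmp1 and Mepe. Among 32851 promoter windows of the same length, 37.4% hold CCAAT on either strand. The Runx core is in the windows of Spp1, Dmp1 and Mepe, with 2 matches in Mepe that do not overlap, and in 16.8% of all windows. These letters are not in the Ibsp window. TTTAAA, which reads the same on both strands, is in the windows of Spp1, Dmp1 and Mepe and in 13.2% of all windows. TATAAA or its other strand TTTATA is in those of Spp1, Ibsp and Mepe and in 13.6% of all windows, and TAATTA is in that of Mepe and in 5.29%. The motifs were chosen after the sequences had been read, and a match is a description of the letters.

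**Figure D1:**
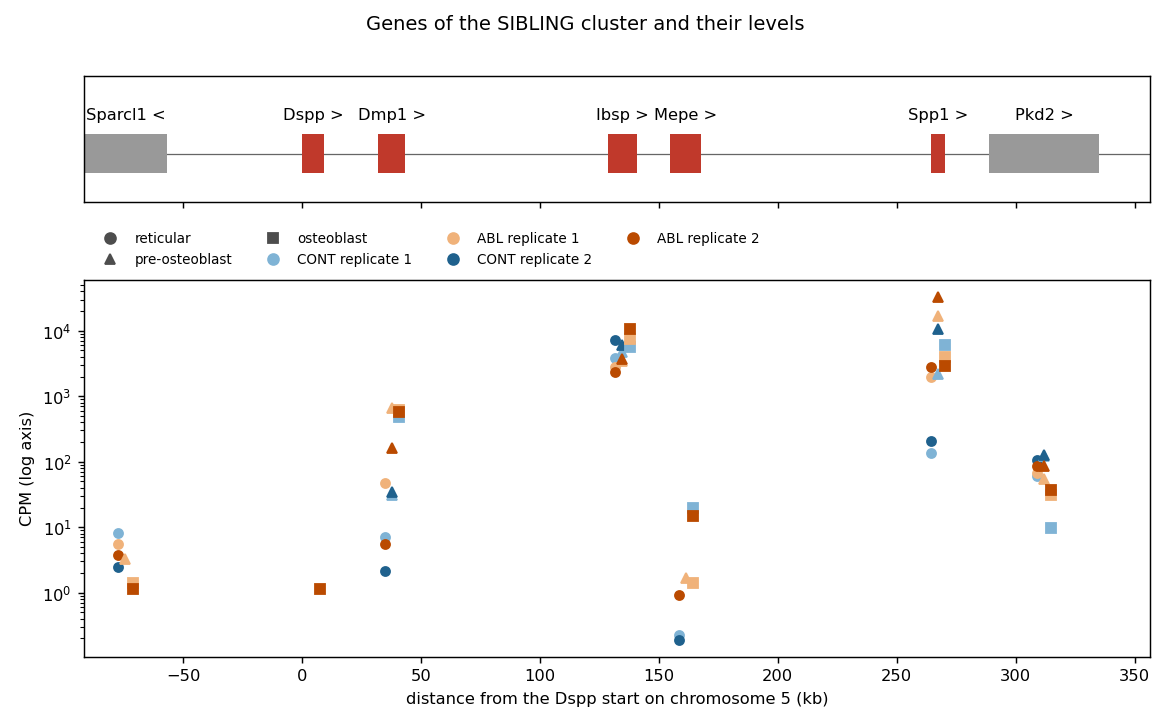
The upper panel draws Sparcl1, the 5 SIBLING genes (red) and Pkd2 to scale by distance in kb from the Dspp start, with arrows for strand. The lower panel gives CPM on a log axis in reticular cells, pre-osteoblasts and osteoblasts of each library (osteoblasts of CONT replicate 2, only 2 cells, are left out, as are levels of 0): Ibsp is above 2000 CPM in every point drawn, Spp1 spans 137 to 32400 and Mepe stays under 20.

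The 4 libraries held 22889380 to 44784072 UMIs (unique molecular identifiers, 1 per captured RNA molecule), and 1459 to 3433 barcodes passed as cells. Although the labels call the sorted red cells mesenchymal, 326 to 1706 cells per library were hematopoietic. No pair of libraries shared more than 5 cell barcodes. ABL replicate 2 stood apart in 2 ways: 63.1% of its mesenchymal cells fell in the periosteal or joint fibroblast class against 2.14 to 3.08% in the others, and Xist was read in 0.0553% of its mesenchymal cells against 49.9 to 81.4%. These Xist shares go against the 2 libraries of replicate 2 being the femurs of the same mice, so a shared replicate number there does not show a shared animal. The part of either in the results was not tested beyond the values given for cells with a Y-linked and no Xist UMI. Levels are CPM, the UMIs of a gene scaled to a fixed total, summed over all cells of a class in a library, and intervals are exact 95% Poisson intervals that cover counting error only. Reticular cells, the Cxcl12-rich stroma of marrow sinusoids, numbered 856, 329, 1572 and 274 in CONT replicate 1, ABL replicate 1, CONT replicate 2 and ABL replicate 2, and values below keep that order. Clusters were made within each replicate, and in each replicate the same 2 clusters held most of this class in CONT and in ABL. Unnamed clusters, among them clusters led by haemoglobin or neutrophil genes, took 26.2, 24.1, 19.3 and 8.68% of mesenchymal cells. Many of these cells scored as reticular. Where clusters led by markers of another class were also named, the reticular class held 1158, 413, 1966 and 340 cells. Pre-osteoblasts, led by Wif1, Kcnk2 and Alpl, numbered 42, 75, 32 and 42, and osteoblasts, led by Car3, Ifitm5 and Smpd3, 10, 62, 2 and 49. None of the 4 genes, nor any listed gene, was used to cluster or name cells.

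Spp1 was low in reticular cells of unoperated femurs and higher in those of ablated femurs in both replicates. Its level was 137 CPM in CONT replicate 1 against 1989 in ABL replicate 1, and 206 CPM in CONT replicate 2 against 2750 in ABL replicate 2. The ABL libraries were 14.5-fold and 13.3-fold above their CONT libraries. The fitted log2 fold change was 3.69 (SE 0.47, n = 2 libraries a group). Here and below, the SE of a fitted log2 fold change rests on a variance shared over genes and is not a spread over libraries. The fold change of Spp1 is given without a p, since this difference was known when the genes were chosen. Cells differed widely. After every cell was thinned to 2000 UMIs, which no reticular cell fell short of, 12.7, 53.8, 13.0 and 67.5% of reticular cells held a Spp1 UMI, against 24.2, 82.7, 24.0 and 81.0% unthinned. In myeloid cells, taken here as the background, the thinned shares were 5.95, 33.2, 4.04 and 10.6% (15.7, 74.0, 20.2 and 27.4% unthinned). A myeloid cluster of 80 cells in CONT replicate 2 also scored 0.8 for macrophages, so this background may include cells that make Spp1. The median depths were 4741.5, 6667, 12833.5 and 7378.5 UMIs in reticular cells and 6000, 6462, 13887.5 and 9297 in myeloid cells. The reticular share was thus above that background in each library. The median ABL reticular cell held 1 and 2 thinned Spp1 UMIs, and the cells with most held 223 and 173.

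Free RNA moved with Spp1. Droplets with at most 300 UMIs, which hold no cell, carried Spp1 at 193, 2951, 396 and 2201 CPM, 15.3-fold and 5.56-fold higher in ABL, above the reticular cells of the same library in all but ABL replicate 2. Haemoglobin and neutrophil transcripts put the share of such RNA in reticular cells at 8.14, 7.39, 0.895 and 15.5%. With that profile subtracted the log2 fold change of Spp1 was 3.70. It was 4.14 when only cells with a Y-linked UMI and no Xist UMI were kept. Without the replicate block it was 3.68, and no gene of the 10932 was called by edgeR in that fit. There 274 had an unadjusted p under 0.05, where a share of 0.05 is expected if no gene differs. Markers of osteoblasts moved with it too. Their summed level in reticular cells was 445.6, 2938, 196.6 and 2171 CPM, of which Col1a1 alone made 408, 2653, 191 and 2027. All 5 of the 8 that could be tested were called higher, where 2.2% of the 10932 genes tested were. None of the 8 was at 0 in any library. The differences of Col1a1 and Bglap were known beforehand, and Bglap2 is a near-identical copy of Bglap, so these markers are not independent. Of 9 pre-osteoblast markers 6 were called higher in reticular cells, beside the same 2.2% of all genes. Among them was Sp7, whose difference was also known beforehand. Alpl and Pth1r are further pre-osteoblast markers. The paper counts both as osteoblast-signature genes, and reports that such genes appeared to rise in reticular cells after injury. The count of pre-osteoblast markers called higher is therefore not independent evidence. The summed levels of the 9 were 1333, 2095, 1454 and 1546 CPM. Their part in the result was not tested.

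Pre-osteoblasts held the highest Spp1 levels of any class in both ABL libraries. The gene was at 2192, 16710, 10730 and 32400 CPM, so that ABL replicate 1 was 7.62-fold and ABL replicate 2 3.02-fold above its CONT library. The fitted log2 fold change was 2.20 (SE 0.81), and 4.70 without the 3 cells of each library with most Dmp1, an alternative chosen after the data had been seen. A single cell of CONT replicate 2 carried 4147 of that library's 4675 Spp1 UMIs in the class. Without that cell its level was 1338 CPM. A UMI was read in 64.3, 82.7, 21.9 and 97.6% of pre-osteoblasts after thinning. The summed level of the reticular markers in this class was 11950, 4403, 15440 and 3570 CPM, so the class itself differed between CONT and ABL, and the part of that in the result was not tested.

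In osteoblasts Spp1 was at 5969, 3915, 3309 and 2897 CPM, 0.656 and 0.875 times the CONT level in ABL of replicates 1 and 2. After TMM scaling the log2 ratios were -0.47 and 0.15, so the direction in replicate 2 depended on the scaling. The counts rested on few cells: 1 cell of the 10 in CONT replicate 1 carried 494 of 614 UMIs, and 1 of the 2 in CONT replicate 2 carried 226 of 228. Without these cells the CONT levels were 1252 and 43.0 CPM. No test was made in this class. The log2 ratio of the osteoblast to the reticular level was 5.44 and 4.0 in the CONT libraries and 0.98 and 0.08 in the ABL libraries (mean 2.62 ± 2.52, SD, n = 4). The CONT ratios rest on those single cells, and without the one in CONT replicate 2 its osteoblast level lies below its reticular level of 206 CPM.

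Spp1 was also read outside these classes. Macrophages, which are known to make osteopontin, were at 2530 and 1233 CPM in ABL, and at 13.5 CPM (3 UMIs in 36 cells) in CONT replicate 1. Chondrocytes were at 52.6 CPM in CONT replicate 1 and at 1907 and 8154 CPM in ABL. In ABL replicate 1 a single chondrocyte of 28 held 549 of 724 UMIs, and the level without it was 482.9 CPM. Endothelial cells were at 29.1, 58.9 and 103 CPM in CONT replicate 1, CONT replicate 2 and ABL replicate 2, below reticular cells, pre-osteoblasts and osteoblasts of the same libraries.

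**Figure D2:**
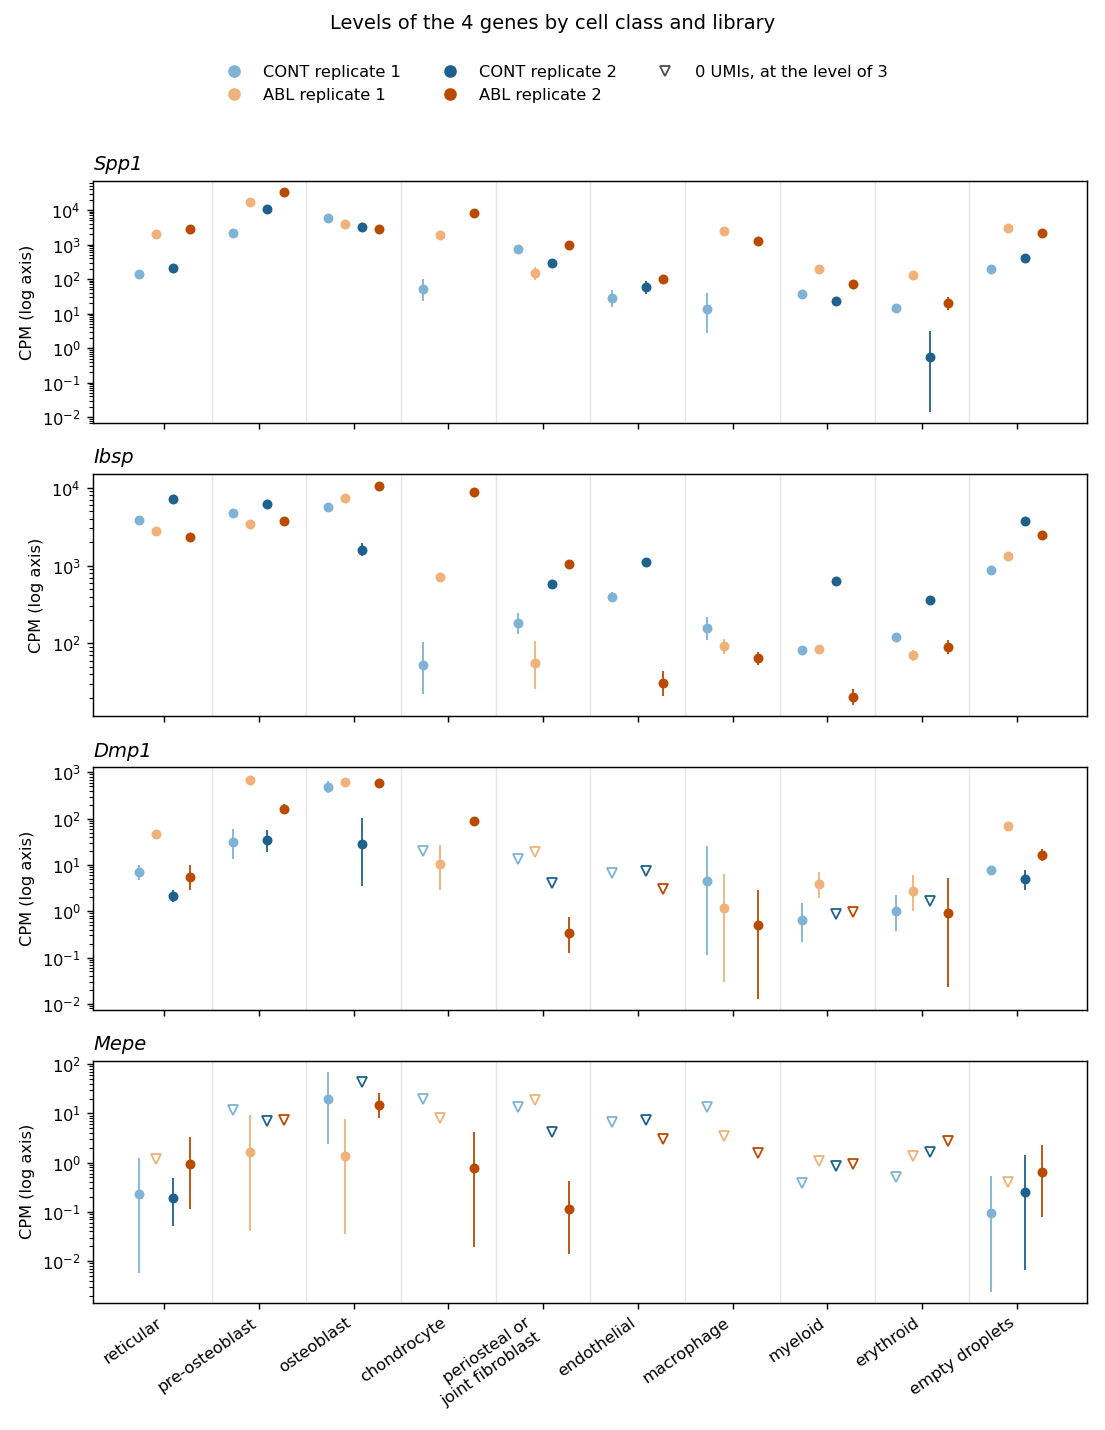
CPM on a log axis of each gene in each cell class (2 or more cells) and in cell-free droplets, 1 point per library with its exact 95% Poisson interval, and open triangles at the level of 3 UMIs where none was read. Spp1 is higher in both ABL libraries in reticular cells and pre-osteoblasts, Ibsp is above 2000 CPM in reticular cells of every library, and Dmp1 reaches 486 to 612 CPM in the 3 libraries with 10 or more osteoblasts.

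Ibsp was read in nearly all reticular cells, already in unoperated femurs. It was at 3788 and 7233 CPM in CONT and at 2785 and 2343 CPM in ABL. A Ibsp UMI was found in 96.7, 84.2, 97.8 and 68.6% of thinned reticular cells, against 14.1, 21.0, 15.2 and 5.32% of myeloid cells. ABL lay below CONT by 1.36-fold and 3.09-fold within the replicates. This difference did not pass the test (log2 fold change -1.14, SE 0.52, edgeR adjusted p = 0.27). It passed in 2 alternatives, at -1.16 in DESeq2 (adjusted p = 0.019, where 0.604% of genes were called lower) and at -1.21 where libraries were clustered without integration (edgeR adjusted p = 0.001, where 1.3% were). Without integration the reticular class held 833, 366, 1634 and 41 cells, against 274 in ABL replicate 2 in the main analysis. The 2 settings therefore do not compare the same cells. Cell-free droplets carried Ibsp at 878, 1324, 3742 and 2462 CPM, higher in ABL in replicate 1 and lower in replicate 2. The median thinned reticular cell held 6, 4, 12 and 3 Ibsp UMIs, with 25.5 to 40.7% of the UMIs in the 10% of cells with most, where for Spp1 such cells held 51.9 to 92.9%.

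In pre-osteoblasts Ibsp was in the range of the reticular cells, at 4759, 3396, 6079 and 3749 CPM, and the log2 fold change of ABL to CONT was -0.65 (SE 0.65, edgeR adjusted p = 0.69). In osteoblasts the gene was at 5639 CPM (interval 5189 to 6117), 7440, 1596 and 10500 CPM. The log2 ratio of osteoblasts to reticular cells was 0.57, 1.42, -2.18 and 2.16 (mean 0.49 ± 1.90, SD, n = 4), a spread wider than the mean, and the negative value came from the library with 2 osteoblasts. Chondrocytes of ABL replicate 2 held Ibsp at 8766 CPM, with 22.3% of it in 1 of 70 cells, against 714 CPM in ABL replicate 1. Of the fibroblast clusters in ABL replicate 2, the one of 374 cells led by Msmp, Fmod and Ndufa4l2 was at 3324 CPM, and those of 339, 198, 173 and 56 cells were at 50.8, 24.5, 12.6 and 20.7 CPM.

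**Figure D3:**
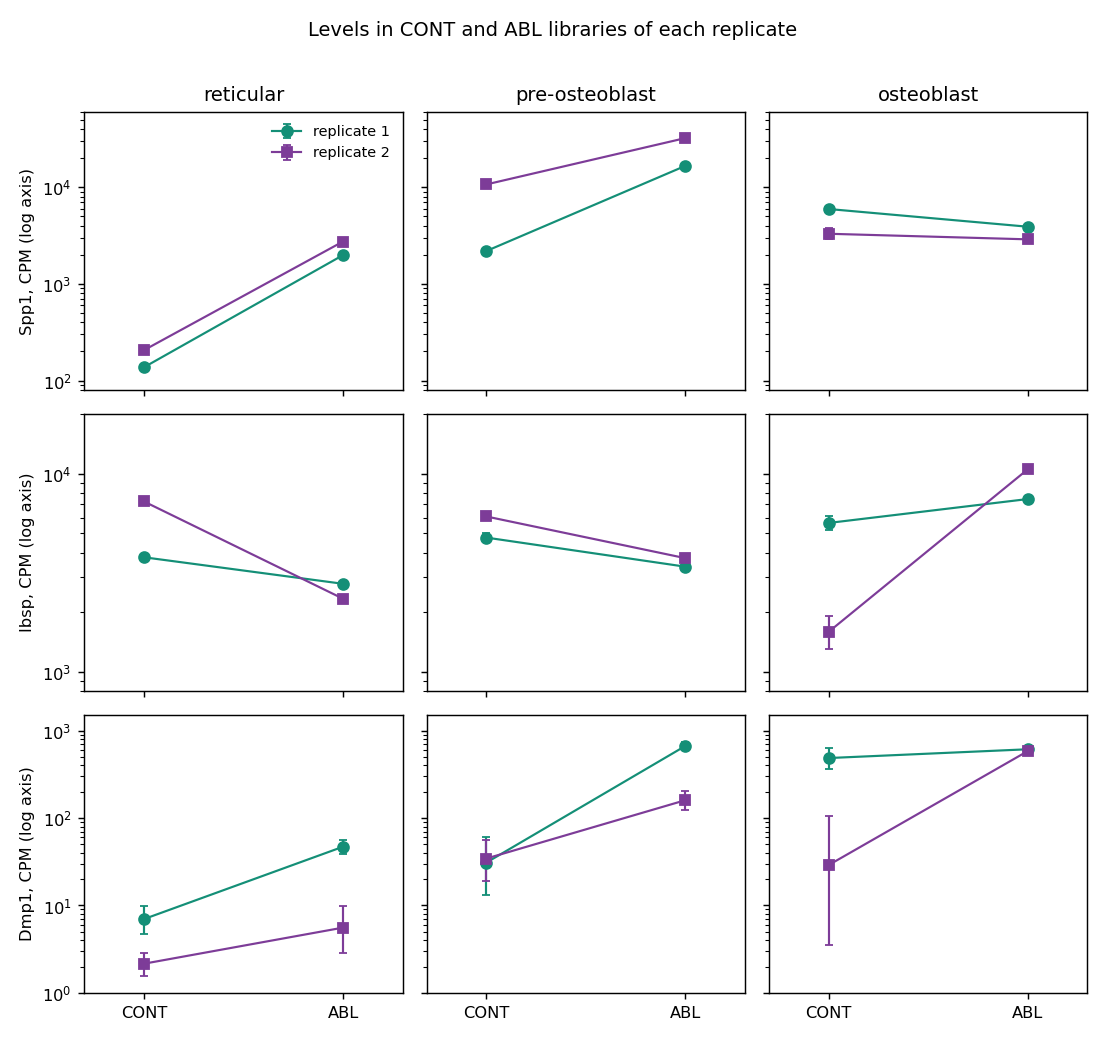
CPM on a log axis of Spp1, Ibsp and Dmp1 (rows) in CONT and ABL libraries, joined within each replicate, in reticular cells, pre-osteoblasts and osteoblasts (columns), with exact 95% Poisson intervals. Spp1 and Dmp1 lines slope up in reticular cells and pre-osteoblasts of both replicates, Ibsp lines slope down there and up in osteoblasts, where CONT replicate 2 has 2 cells.

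Dmp1 was higher in osteoblasts than in reticular cells of every library, and few reticular cells held a UMI. In osteoblasts it was at 486, 612, 29.0 and 584 CPM, the third value being 2 UMIs in 2 cells. In reticular cells it was at 6.99, 47.0, 2.16 and 5.58 CPM, no more than the 7.66, 68.8, 4.87 and 16.7 CPM of cell-free droplets in the same libraries. The log2 ratio of osteoblasts to reticular cells was 6.12, 3.70, 4.33 and 6.71, where the third value takes the 2 UMIs at the limit of 3 counts (mean 5.22 ± 1.43, SD, n = 4). In this gene, unlike Spp1 and Ibsp, the libraries with 10 or more osteoblasts all had them higher by more than 3 on the log2 scale. In CONT replicate 2 both UMIs were in 1 osteoblast, and the interval of 3.52 to 105 CPM leaves the size of its ratio uncertain. Against pre-osteoblasts the osteoblasts were not higher in every library: in ABL replicate 1 pre-osteoblasts were at 669 CPM and in CONT replicate 2 at 34.4 CPM.

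In reticular cells Dmp1 passed the test, with a log2 fold change of 2.08 (SE 0.36, edgeR adjusted p = 6.4e-07, n = 2 libraries a group), where 2.2% of 10932 genes tested were called higher. Calls in this class were 240 higher and 215 lower, and 327 and 151 without TMM scaling. The difference in Dmp1 rested on a handful of cells. The UMIs numbered 31, 118, 45 and 12. A single cell of ABL replicate 1 held 94 of the 118. That cell had 625 Spp1 UMIs and 2 of Cxcl12, the gene that defines the class, whereas the 3 reticular cells with most Dmp1 in CONT replicate 1 had 124, 147 and 78. Without the 3 cells with most Dmp1 in each library, a choice that lowers the gene by construction, the log2 fold change was -0.02 (edgeR adjusted p = 1.0). It was 0.38 (edgeR adjusted p = 0.79) under the study's cell filter alone and -0.58 (edgeR adjusted p = 0.94) without integration, where ABL replicate 2 had 41 reticular cells. Thinned shares of cells with a UMI were 1.75, 3.04, 0.636 and 0.730%.

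Pre-osteoblasts held Dmp1 at 30.9, 669, 34.4 and 160.2 CPM. ABL was 21.6-fold above CONT in replicate 1 and 4.65-fold in replicate 2, and the log2 fold change was 3.22 (SE 0.52, edgeR adjusted p = 2.6e-07), where 0.971% of 5560 genes tested were called higher. Here, too, few cells carried the gene: 2 of 42, 23 of 75, 2 of 32 and 7 of 42 cells had a UMI. The 3 cells with most held 324 of 405 UMIs in ABL replicate 1 and 62 of 66 in ABL replicate 2, and without the 3 of each library no UMI was left in CONT and 143 and 10.9 CPM in ABL. Most of these cells were rich in Spp1. The 3 of ABL replicate 1 had 1588, 596 and 408 Spp1 UMIs, while the 2 with a Dmp1 UMI in CONT replicate 1 had 3 and 15. The 3 of ABL replicate 2 had 1804, 2149 and 1065 Spp1 UMIs, 2 of the 3 in CONT replicate 2 held 455 and 4147, and none of the 3 in ABL replicate 2 had more than 5 UMIs of Bglap, the gene of osteocalcin. The 3 in ABL replicate 1 had 21, 64 and 10 of Bglap. Among osteoblasts, the 3 with most Dmp1 in ABL replicate 1 had 3, 1 and 9 Spp1 UMIs and 893, 57 and 2847 of Bglap. Those in ABL replicate 2 had 80, 0 and 0 of Spp1 and 287, 81 and 73 of Bglap. In CONT replicate 1 they had 0, 494 and 99 of Spp1 and 129, 5 and 222 of Bglap, so the contrast did not hold in every cell.

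**Figure D4:**
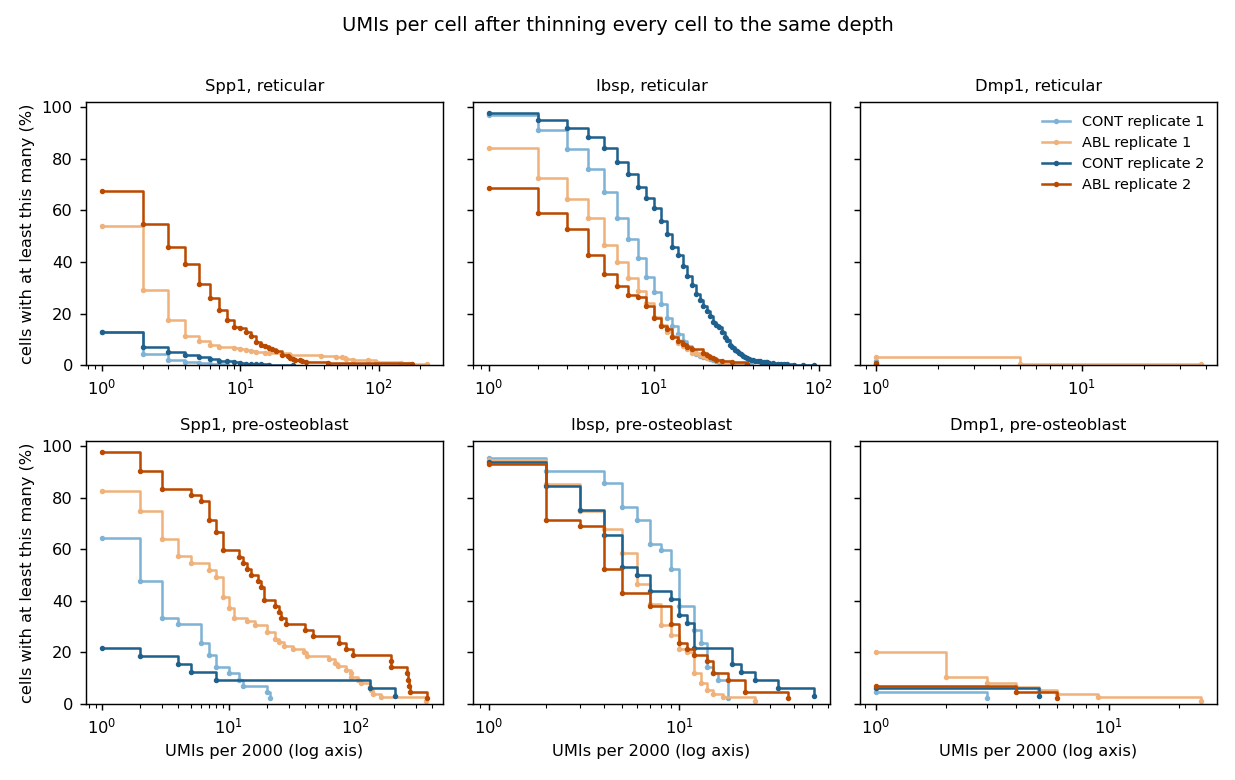
Share of cells (%) with at least the number of UMIs on the x axis (log scale), after thinning each cell to 2000 UMIs, for Spp1, Ibsp and Dmp1 in reticular cells (upper row) and pre-osteoblasts (lower row), 1 line per library. The ABL lines lie above the CONT lines for Spp1 at 1 UMI, the CONT lines above the ABL lines for Ibsp in reticular cells at 1 UMI, and Dmp1 was read in 3.04% of reticular cells or fewer.

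Mepe was almost not read. All mesenchymal cells together held 4, 2, 4 and 18 Mepe UMIs, and hematopoietic and endothelial cells none. Of the 18 in ABL replicate 2, 13 were in 1 osteoblast, which also had 41 Dmp1 UMIs and no Spp1 UMI. The gene was below the level needed for a test in every class. For the 2 UMIs in the 10 osteoblasts of CONT replicate 1 the level was 19.4 CPM (interval 2.36 to 70.2), and for the 49 osteoblasts of ABL replicate 2 it was 14.8 CPM (interval 7.88 to 25.3), so no difference was detectable at this depth. Dspp, the gene of dentin, gave 1 UMI in all mesenchymal cells, in an osteoblast of ABL replicate 2. The osteocyte gene Sost gave 5 UMIs in 1 osteoblast of ABL replicate 1 and 6 in 1 of ABL replicate 2, and none in CONT osteoblasts.

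Spp1 and Ibsp were compared cell by cell in reticular cells. In thinned reticular cells of ABL replicate 1, 84.2% of cells with a Spp1 UMI and 84.2% of those without had a Ibsp UMI. In ABL replicate 2 these shares were 65.4 and 75.3%. In the CONT libraries nearly all cells had Ibsp whether or not Spp1 was read. No cell had all 4 genes after thinning, and few had 3 or more. Those were 3 of 856, 5 of 329, 1 of 1572 and 1 of 274 reticular cells, 2 of 42, 11 of 75, 2 of 32 and 3 of 42 pre-osteoblasts, and 2 of 10, 9 of 62, 0 of 2 and 8 of 49 osteoblasts.

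The share of each gene's UMIs held by a class showed where the family sat in the tissue sampled. Pre-osteoblasts were 3.20, 11.01, 1.56 and 2.32% of mesenchymal cells and held 26.0, 40.1, 48.5 and 21.0% of mesenchymal Spp1 UMIs. In CONT replicate 2 a single cell held 4147 of the 4675 Spp1 UMIs of the class, out of 9638 in all mesenchymal cells. In ABL replicate 2 fibroblasts held more Spp1 than pre-osteoblasts did, 26.5% from 63.1% of cells. Reticular cells were 65.2, 48.3, 76.6 and 15.2% of the cells and held 70.1, 37.3, 79.8 and 10.3% of Ibsp UMIs. These shares of UMIs were above those of cells in CONT and below them in ABL. Depth differed by class, so the 2 shares do not compare levels. In ABL replicate 2 the median was 7378.5 UMIs in reticular cells and 14040 in fibroblasts. By CPM, Ibsp in reticular cells was above all mesenchymal cells in both CONT libraries and in ABL replicate 2 (2343 against 1909). In ABL replicate 1 it was below them (2785 against 3130). Chondrocytes held 1.45% of Ibsp UMIs from 4.11% of cells in ABL replicate 1, and 23.55% from 3.87% in ABL replicate 2. Osteoblasts, 0.762, 9.10, 0.0974 and 2.71% of the cells, held 2.42, 28.6, 0.0582 and 18.9% of Ibsp UMIs. They held 51.0, 45.2, 2.74 and 71.3% of Dmp1 UMIs. In CONT replicate 2, which had 2 osteoblasts, most of its 73 Dmp1 UMIs were in reticular cells, 1 to 3 in each of 36 cells.

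**Figure D5:**
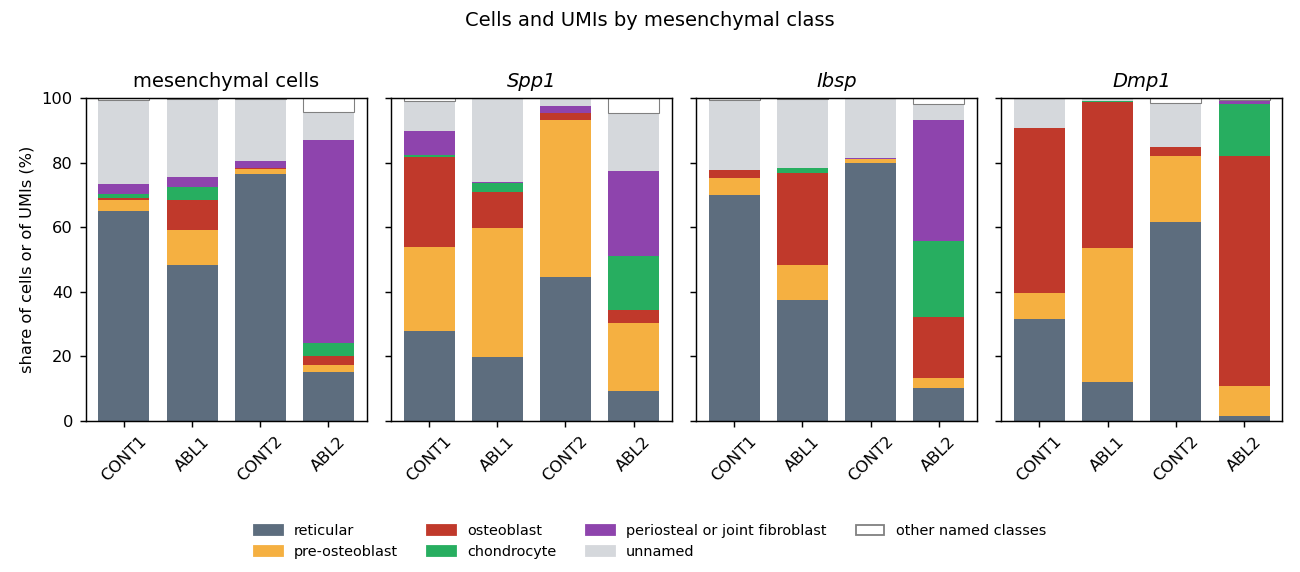
Stacked bars of the share (%) of mesenchymal cells and of the UMIs of Spp1, Ibsp and Dmp1 by class in each library. Pre-osteoblasts take 21.0 to 48.5% of Spp1 UMIs from 1.56 to 11.01% of cells, the 48.5% of CONT replicate 2 mostly from 1 cell. The reticular share of Ibsp UMIs is above that of cells in CONT and below it in ABL. Depth differs by class, and by CPM reticular cells of ABL replicate 2 are above all mesenchymal cells (2343 against 1909). In ABL replicate 2 fibroblasts hold 63.1% of cells, 26.5% of Spp1 UMIs and 37.3% of Ibsp UMIs.

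Over all mesenchymal cells, where the makeup of the libraries enters, Dmp1 passed the test. It was at 14.2, 163, 2.65 and 28.1 CPM, a log2 ratio of ABL to CONT of 3.45 in replicate 1 and 3.55 in replicate 2, and the fitted log2 fold change was 3.43 (SE 0.45, edgeR adjusted p = 0.0022). In that fit 1.85% of 13693 genes were called higher. Spp1 was at 317, 4221, 349 and 2488 CPM with a fitted log2 fold change of 3.25 (SE 0.90). Ibsp was at 3481, 3130, 6850 and 1909 CPM, with a log2 fold change of -1.03 (SE 1.04, edgeR adjusted p = 0.73). A change in the number of cells of a class and a change of level within it cannot be told apart in these sums.

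Integrins and Cd44, the receptors of the family, were mostly not called in reticular cells. Of 9 listed, 8 were tested, 1 was higher and none lower, where 2.2% of all genes were called higher and 1.97% lower. The median log2 fold change was -0.04 over the list and -0.01 over all genes. Itga9, a receptor for osteopontin, was the one that rose, from 16.9 to 37.8 and from 34.2 to 73.5 CPM (log2 fold change 1.03, SE 0.25, edgeR adjusted p = 0.0017). Itgb1 and Itgav had the highest levels of the list, Itgb1 at 375, 423, 692 and 486 CPM (edgeR adjusted p = 0.83) and Itgav at 115.5, 175, 142.5 and 128 CPM (edgeR adjusted p = 0.92).

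Among 13 enzymes that phosphorylate, cleave or cross-link SIBLING proteins or act on their mineral, 12 were tested in reticular cells, 3 were higher and 1 was lower (median log2 fold change 0.47). Over all genes 2.2% were called higher and 1.97% lower. Fam20c rose from 4.28 to 12.4 and from 3.64 to 10.7 CPM (edgeR adjusted p = 0.022). The gelatinase gene Mmp2 rose from 52.55 to 188 and from 27.4 to 156 CPM (log2 fold change 2.07, edgeR adjusted p = 6.3e-13). Acp5, the phosphatase that removes phosphate from osteopontin, rose from 4.96 to 21.5 and from 0.911 to 6.51 CPM (edgeR adjusted p = 3.6e-05). Acp5 is also a marker of osteoclasts. Osteoclast clusters were named in ABL replicates 1 and 2 (20 and 82 cells) and in neither CONT library. An unnamed cluster of 169 cells in CONT replicate 1 scored 0.9 for that class. The part of their free RNA in the Acp5 difference was not tested. Among the osteoclast markers Ctsk had the most UMIs in reticular cells, 1106, 538, 1982 and 292. Of the 8 osteoclast markers, 3, 0, 4 and 5 were at 0 in the reticular cells, their summed level was 304.5, 302, 124 and 182 CPM, and the defining genes Ocstamp and Calcr had 3 UMIs and 1, all in ABL replicate 1. Phex, the endopeptidase that cleaves acidic SIBLING peptides, fell from 180 to 113 and from 216 to 105 CPM (log2 fold change -0.96, edgeR adjusted p = 0.020). Mmp13 and Ctsb had the highest levels of this list, Mmp13 at 1124, 2880, 1158 and 2166 CPM (edgeR adjusted p = 0.24) and Ctsb at 862, 788, 624 and 487 CPM (edgeR adjusted p = 0.78).

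Of 11 transcription factors known to act on these promoters, 8 were tested in reticular cells, 1 was higher and 1 lower (median log2 fold change -0.15), where 2.2% of all genes were higher and 1.97% lower. Sp7, which commits cells to the osteoblast lineage, rose from 9.92 to 56.2 and from 3.64 to 28.4 CPM (log2 fold change 2.62, SE 0.29). No p is given for Sp7, since its difference was known when the lists were made. Vdr, the vitamin D receptor, fell from 66.3 to 42.2 and from 160 to 84.7 CPM (log2 fold change -0.90, edgeR adjusted p = 0.015). Runx2, the master regulator of the lineage, was at 157, 202, 245 and 173 CPM, with no call (log2 fold change -0.18, SE 0.30, edgeR adjusted p = 0.87), and Atf4 was at 302, 194, 282 and 261 CPM (edgeR adjusted p = 0.55).

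Other secreted bone matrix genes gave the most calls of the 4 lists in reticular cells. The differences of Col1a1, Bglap and Sp7 were known when the lists were made, so their counts are not independent evidence of a direction. No p is given for them or for Bglap2, the near-identical copy of Bglap. Of 12 listed, 9 were tested, 5 were higher and none lower (median log2 fold change 1.26), where 2.2% of all genes were higher and 1.97% lower. Osteocalcin genes rose, Bglap from 13.5 to 156 and from 1.49 to 32.6 CPM (log2 fold change 3.79, SE 0.28) and Bglap2 by 3.65 on the log2 scale. These near-identical copies can share reads, so the split between them is uncertain. Col1a1, the chain of type I collagen, rose from 408 to 2653 and from 191 to 2027 CPM (log2 fold change 2.95). Mgp, an inhibitor of mineralisation, rose by 2.08 (edgeR adjusted p = 4e-07) and Omd by 1.26 (edgeR adjusted p = 0.00032) on the log2 scale. Sparc and Bgn had high levels and no call, Sparc at 2767, 4701, 1972 and 4412 CPM (edgeR adjusted p = 0.45) and Bgn at 1965, 2481, 1251 and 1866 CPM (edgeR adjusted p = 0.83).

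In pre-osteoblasts, where 0.971% of 5560 genes were called higher and 99 genes lower, 3 of 11 enzymes tested (Fam20c, Mmp9 and Enpp1) and 3 of 9 matrix genes (Bglap, Col1a1 and Mgp) were higher in ABL. None of these was lower, and none of 7 receptors and 7 transcription factors was called. The differences of Bglap and Col1a1 were known when the lists were made, so the count of matrix genes is not independent evidence of a direction. Mmp9 rose from 15.5 to 267.5 and from 34.4 to 167 CPM (log2 fold change 2.91, edgeR adjusted p = 6e-07). Enpp1, which makes the mineralisation inhibitor pyrophosphate, rose from 19.3 to 145 and from 48.2 to 136 CPM (edgeR adjusted p = 0.0020).

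The genes on either side of the cluster were not called. In reticular cells Sparcl1, at the 5′ end, was at 8.12, 5.58, 2.49 and 3.72 CPM (log2 fold change -0.17, SE 0.53, edgeR adjusted p = 0.94) and Pkd2, after Spp1, at 60.2, 66.1, 106 and 87.0 CPM (log2 fold change -0.19, SE 0.25, edgeR adjusted p = 0.83). Between Dmp1 and Ibsp, Gm31048 had 39 UMIs in all mesenchymal cells.

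Over 50 profiles, each a mesenchymal cluster in 1 library, the genes whose level most followed each member were found among 8759 genes. For Spp1 they were Alpl (Pearson r = 0.770), Shf (0.768) and Unc5b (0.750). For Ibsp they included Runx2 (r = 0.788) and Irx5 (0.763). For Dmp1 they were Bmp3 (r = 0.802), Bglap (0.788) and Ramp1 (0.781). Mepe had too few UMIs. Among the members themselves Spp1 and Ibsp had r = 0.27, Spp1 and Dmp1 0.55 and Ibsp and Dmp1 0.43. Profiles of 1 library share its chemistry, depth and free RNA, so these are descriptions.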

How the data were processed

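Red cells of 4 libraries (CONT and ABL, replicates 1 and 2) were measured by 3′ single-cell RNA-seq. The authors aligned reads with Cell Ranger to mm10 with reporter sequences added and deposited unfiltered UMI counts per gene and barcode. The header of the replicate 2 matrices names version 3.0.0. No normalisation or pooling of the deposited counts was applied. Bglap and Bglap2 are the listed genes whose reads may be shared.

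The 4 genes and the gene lists were chosen with earlier results of these data known. Barcodes were kept at 500 genes and under 20% mitochondrial UMIs (version 2) or 1000 genes and 15% (version 3), the study's limits, which left 4809, 1768, 2478 and 2720 barcodes. A further floor, 1/10 of the 99th percentile of UMIs over the top 3000 barcodes, left 3433, 1459, 2404 and 2537. Scrublet marked 78, 8, 2 and 25 cells as doublets, which were kept in the main analysis. It marked under 0.5% in CONT replicate 2. Cells were clustered with Seurat 5.3.0 (2000 variable genes, 30 components, resolution 0.8), mesenchymal cells again after integration within each replicate. The 57 listed and transgene features were left out. Classes were named from 111 markers where the mean scaled score passed 0.25 by a margin of 0.1; these limits, the division of mixed clusters at resolution 0.4 and the rule that clusters led by markers of another class stay unnamed were set after the data had been seen. Clusters led by haemoglobin or neutrophil genes stayed unnamed.

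UMI counts were summed per library and class and fitted in R 4.3.3 with edgeR 4.0.16 (quasi-likelihood, TMM, filterByExpr) with replicate as a block, which left 1 residual degree of freedom, and Benjamini-Hochberg adjusted over all genes tested, with a threshold of 0.05. The fit needed 10 cells in every library. Labels do not say that the libraries of a number hold the same mice. Deviations of same-numbered libraries correlated at 0.738 in reticular cells, 0.533 in pre-osteoblasts and 0.434 in all mesenchymal cells, with shared chemistry included. The p-values rest on a variance shared over all genes, since 1 residual degree of freedom says little about the spread of a single gene. A small p is therefore not a measure of how well that gene repeated between replicates. The same holds for a small SE, which is the log2 fold change divided by the square root of its F statistic. The procedure was tested on simulated data: of 200 genes changed by 2 on the log2 scale it recovered 182 in reticular cells, 117 in pre-osteoblasts and 64 in all mesenchymal cells, and 6.19, 1.68 and 0% of calls were false. All genes of a class were drawn with the same dispersion (0.0348, 0.0596 and 0.143). These rates therefore do not cover genes of wider spread, such as those with most UMIs in a few cells. DESeq2 1.42.0 was an alternative. Named genes were the members, listed genes past the threshold, the 2 of highest level in each list, the neighbours on chromosome 5 and the 3 genes most like each member, of which 1 is not reported here. Other genes named, the cells with most Dmp1 and the Bglap and Cxcl12 counts beside them were chosen after their values were seen.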

Additional observations from a re-analysis of the deposited data

Results flagged for a closer look

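Ibsp moved in opposite directions in different classes in both replicates. The log2 ratio of ABL to CONT, after TMM scaling, was -0.57 and -1.74 in reticular cells and -0.37 and -0.77 in pre-osteoblasts, but 0.54 and 3.06 in osteoblasts. The mean ratio in osteoblasts was above that in reticular cells by 2.96 and above that in pre-osteoblasts by 2.37. This difference was not tested, and the second osteoblast value rests on the 2 osteoblasts of CONT replicate 2. The first also rests on few cells. Of 580 Ibsp UMIs in the 10 osteoblasts of CONT replicate 1, 207 were in 1 cell, as were 1498 of 5357 in ABL replicate 1. Without these cells the levels were 4186 and 5531 CPM, against 5639 and 7440 with them. Leaving out the ABL cell alone puts ABL below CONT.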

How the results depend on the processing

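The replicate block decided the calls. Without it neither Dmp1 nor Ibsp passed in reticular cells, pre-osteoblasts or all mesenchymal cells by edgeR, while Dmp1 passed in each with it. Of the listed genes 0 passed in reticular cells (12 with the block). With the block, 8 passed with free RNA subtracted and 9 in DESeq2. Spp1 is left out here, since its difference was known beforehand. The 12 include Sp7, Col1a1 and Bglap, whose differences were also known, and Bglap2, the near-identical copy of Bglap. These counts are therefore not independent evidence. Without the block, 274 of 10932 genes tested in reticular cells had an unadjusted edgeR p under 0.05. In pre-osteoblasts these were 353 of 5560 and in all mesenchymal cells 1206 of 13693. A share of 0.05 is expected where no gene differs, so these are not counts of differences. With 2 pairs and 1 residual degree of freedom, leaving out a replicate gave values and no test. In reticular cells Dmp1 did not pass under the study's cell filter alone or without integration. Without integration the reticular class of ABL replicate 2 held 41 cells, against 274 in the main analysis. Nor did it pass without the 3 cells of each library with most Dmp1, an alternative chosen after the data had been seen. Dmp1 there was -0.58 on the log2 scale without integration and -0.02 without those cells; the first cause was not tested. In all mesenchymal cells the log2 fold change of Spp1 is given without a test. It was 3.22 to 3.43 under the study filter, with doublets removed, in DESeq2, without the low-count filter and without the 3 cells. In pre-osteoblasts the log2 fold change of Spp1, also given without a test, was 2.18 in DESeq2 and 4.70 without the 3 cells (2.20 with them). The osteoblast to reticular log2 ratio, with 1 replicate left out, ranged from 2.04 to 3.21 for Spp1, from -0.01 to 1.0 for Ibsp and from 4.91 to 5.52 for Dmp1. With 1 replicate left out the log2 fold change of ABL to CONT in reticular cells ranged from 3.62 to 3.73 for Spp1, from -1.74 to -0.57 for Ibsp and from 1.25 to 2.62 for Dmp1. DESeq2 called 77 genes higher and 66 lower in reticular cells (240 and 215 by edgeR), 13 and 20 in pre-osteoblasts (54 and 99) and 391 and 233 in all mesenchymal cells (253 and 98). Osteoblasts, with 2 cells in CONT replicate 2, and Mepe are limited by depth. In pre-osteoblasts no fit could be made without integration, under the study filter alone or in cells with a Y-linked and no Xist UMI, since a library had under 10 cells, and Dmp1 was below the count filter without the 3 cells. Calls also moved by over 1.5 times in all mesenchymal cells with free RNA subtracted (48 higher and 12 lower), in cells with a Y-linked and no Xist UMI (356 and 322; 113 and 70 in reticular cells), with doublets removed (426 and 221), without the low-count filter (460 and 215) and under the study filter alone (366 and 186), in reticular cells without integration (154 and 143), and in pre-osteoblasts limited to cells with a tdTomato UMI (21 and 38).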
